A study of Mus musculus with 12 samples.

Results

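Expression of 46 mouse genes for lysosomal enzymes, lysosomal membrane and sorting proteins, and the vacuolar proton pump was followed in primary macrophages cultured alone or with myeloma cells. The genes were taken as a fixed list of symbols and matched to the probe sets of the array by symbol or synonym, with the brightest probe set kept for each gene. Of the 46 genes, 44 were measured, out of 22180 genes tested on the array. Glb1, a lysosomal β-galactosidase, was represented only by a probe set shared with another gene, and Atp6v0c, a proton-carrying subunit of the pump, had no probe set. The 44 genes fell into 10 for membrane and sorting proteins, 11 for lipid handling, 11 for the breakdown of glycans and glycogen, 2 for proteolysis and progranulin, and 10 for the pump.

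Lysosomes are the acidic organelles in which macrophages break down what they engulf and what they recycle from inside the cell. Soluble hydrolases reach them by way of mannose 6-phosphate receptors or sortilin, and most work only at low pH, which the vacuolar ATPase (V-ATPase) keeps by pumping protons through its membrane sector (V0) with energy from its ATP-splitting sector (V1). A motif called the CLEAR element, known from promoters of lysosomal genes, is bound by transcription factors of the MiT family such as TFEB and TFE3.

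The 12 arrays formed 4 groups of 3: wild type macrophages cultured alone (WT macrophages), wild type macrophages cultured with the mouse multiple myeloma line 5TGM1 for 72 h (WT TAMs, for tumour-associated macrophages), and the same pair for macrophages lacking Cd36 (KO macrophages and KO TAMs). Cd36 encodes a scavenger receptor for oxidised lipoproteins and long-chain fatty acids. The labels give hours of culture for the TAMs and none for the macrophages, so differences between the cultures can hold an effect of culture time. The sources used here do not say how myeloma cells were separated from the macrophages, how old and of which sex the animals were, or whether replicates were separate animals or cultures. All p-values thus reflect the spread among these arrays, which can be technical. Levels are log2 of the deposited intensity, differences are differences of these levels with their standard error (SE), and a gene was called when its limma p, adjusted by Benjamini-Hochberg over all 22180 genes, was under 0.05.

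Median intensities of the arrays ranged from 31.3 to 33.3, and the number of arrays limits the precision. The Cd36 level was 12.1 to 12.5 on WT arrays and 8.45 to 9.66 on KO arrays, with an exact two-sided permutation p of 0.1 in each culture, the smallest that 3 against 3 arrays allow. Xist, the RNA of the inactive X chromosome, was at 11.08 to 11.32 on WT arrays and 3.91 to 4.35 on KO arrays, so the Cd36 genotype and a difference in sex chromosomes cannot be told apart. All 8 macrophage markers were bright, with list means of 11.63 to 11.67 in WT macrophages and 11.71 to 11.76 in WT TAMs. In KO macrophages these means were 11.48 to 11.49 and in KO TAMs 11.83 to 12.02. Of 11 myeloma and plasma cell markers, 7 stayed under 6 on every array, while Slamf7, Fcrl5, Cd79b and Sdc1 had mean levels of 12.07, 8.75, 7.63 and 5.83. The means of that list were 5.27 to 5.72 in WT TAMs against 6.10 to 6.13 in WT macrophages. In KO TAMs they were 5.41 to 6.07 against 5.96 to 6.12 in KO macrophages. Of the 11 markers 2 were called higher in KO than in WT TAMs, where 5.03% of all genes were. The mean of 12 stromal markers was 6.67 to 6.76 in WT macrophages, 7.04, 8.11 and 7.17 on WT TAM arrays 1 to 3, 5.24 to 5.29 in KO macrophages and 6.66, 6.38 and 5.65 on KO TAM arrays 1 to 3. Of these stromal markers 3 were called higher in TAMs of each genotype, 5 were called lower in KO than in WT macrophages and 7 in KO than in WT TAMs, while Lum stayed at background. Osteoclast markers (9) had list means of 6.998 to 7.216 in WT macrophages and 5.68 to 6.42, 5.83 to 5.90 and 5.73 to 6.04 in WT TAMs, KO macrophages and KO TAMs. The part of other cells in the differences described here was not tested. In bulk RNA, fewer cells of a type and less RNA per cell cannot be told apart. KO TAM arrays stood apart from one another, with scores of 19.28, -11.61 and -23.73 on the leading principal component of all genes (47.7% of the variance), where WT TAM arrays lay between 43.03 and 44.07. KO TAM 1 and WT TAM 2 received the lowest array weights, 0.266 and 0.329, and results that rest on them are given with and without them.

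The promoters of the genes were searched for the 8-base core of the CLEAR element, TCACGTGA, which reads the same on both strands and contains the shorter CACGTG. RefSeq promoter windows of assembly GRCm38.p6, 250 bases before to 50 after the start site, were at hand for 38 of the 46 genes. The core lay in 6 of these 38 (15.8%), in Cln3, Mcoln1, Igf2r, Gla, Atp6v1a and Atp6v0d1, against 304 of the 27025 genes of the whole table (1.12%) and 244 of the 16990 tested genes in it (1.44%). The shorter CACGTG lay in 12 of 38 (31.6%) and in 2187 of 27025 genes (8.09%). Of the 23 genes with a window that were called higher in WT TAMs, 5 held the core (21.7%), as did 1 of 12 that were not called (8.33%). These are matches of letters and not binding sites, and the arrays did not measure binding. The 250 bases before the start are shown for 3 genes whose level was higher in WT TAMs, with each core in capitals. Gla and Igf2r held the core in 2 copies and Mcoln1 in 1. Cln3 and Atp6v1a, also called higher, held it in 1 copy and are not shown, although Atp6v1a rose more than Mcoln1 (0.65 against 0.49). The start site used for Atp6v1a lies 443 bases inside the outermost annotated end of its gene. A gene was counted when any of its windows held a match. Cln3 had 2 windows, and its core lay only in the one at chr7:126583187-126583486, inside the gene. The Cln3 window at the outermost annotated end, chr7:126585768-126586067, held no core.
Gla: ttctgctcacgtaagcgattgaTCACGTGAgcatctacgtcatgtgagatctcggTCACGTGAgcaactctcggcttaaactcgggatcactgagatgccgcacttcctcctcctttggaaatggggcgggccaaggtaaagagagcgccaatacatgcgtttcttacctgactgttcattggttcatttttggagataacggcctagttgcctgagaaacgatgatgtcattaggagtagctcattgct
Igf2r: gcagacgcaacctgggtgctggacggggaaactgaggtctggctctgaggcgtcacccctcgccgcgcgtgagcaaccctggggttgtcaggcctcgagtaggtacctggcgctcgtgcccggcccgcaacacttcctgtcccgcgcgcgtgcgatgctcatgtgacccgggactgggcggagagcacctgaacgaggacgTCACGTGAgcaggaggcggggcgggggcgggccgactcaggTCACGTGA
Mcoln1: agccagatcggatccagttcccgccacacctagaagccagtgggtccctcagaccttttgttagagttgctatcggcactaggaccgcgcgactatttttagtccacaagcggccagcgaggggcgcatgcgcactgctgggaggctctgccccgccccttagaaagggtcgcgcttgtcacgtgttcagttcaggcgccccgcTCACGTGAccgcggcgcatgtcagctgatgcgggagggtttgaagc
The Gla window was chrX:134601006-134601255 on the minus strand, with cores starting 228 and 195 bases before the start of this α-galactosidase gene. The Igf2r window was chr17:12769707-12769956, also on the minus strand, with cores 49 and 8 bases before the start. The Mcoln1 window was chr8:3500269-3500518 on the plus strand, with its core 46 bases before the start. All 3 windows lie directly upstream of the outermost annotated end of their gene, outside its exons and introns.

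What co-culture with myeloma cells changed in these genes was examined first in wild type cells. In WT TAMs, 27 of the 44 genes were called higher and 1 was called lower relative to the macrophages, where 5.89% of all tested genes were called higher and 5.66% lower. All tested genes had a median mean level of 5.34, while none of the 44 genes read under 6.43 on any array. The shares and medians of all genes given here and below are thus not matched for level. The median difference of the 44 genes was 0.47 on the log2 scale, beside 0.01 for all genes. The 2 groups of 3 arrays did not overlap for 37 genes in the higher direction (15.5% of all genes) and for 2 in the lower (14.6%). The median difference was 0.57 for lipid handling, 0.55 for glycan breakdown, 0.42 for membrane and sorting proteins and 0.40 for the pump. Stromal marker means moved with it, from 6.67 to 6.76 in WT macrophages up to 7.04 to 8.11 in WT TAMs. Of 11 myeloma markers 3 were called lower and 0 higher in WT TAMs, with a median difference of -0.09 and a lowest of -4.42. The part of either list was not tested. The heatmap of levels by array shows the genes in the order of their roles.

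**Figure D1:**
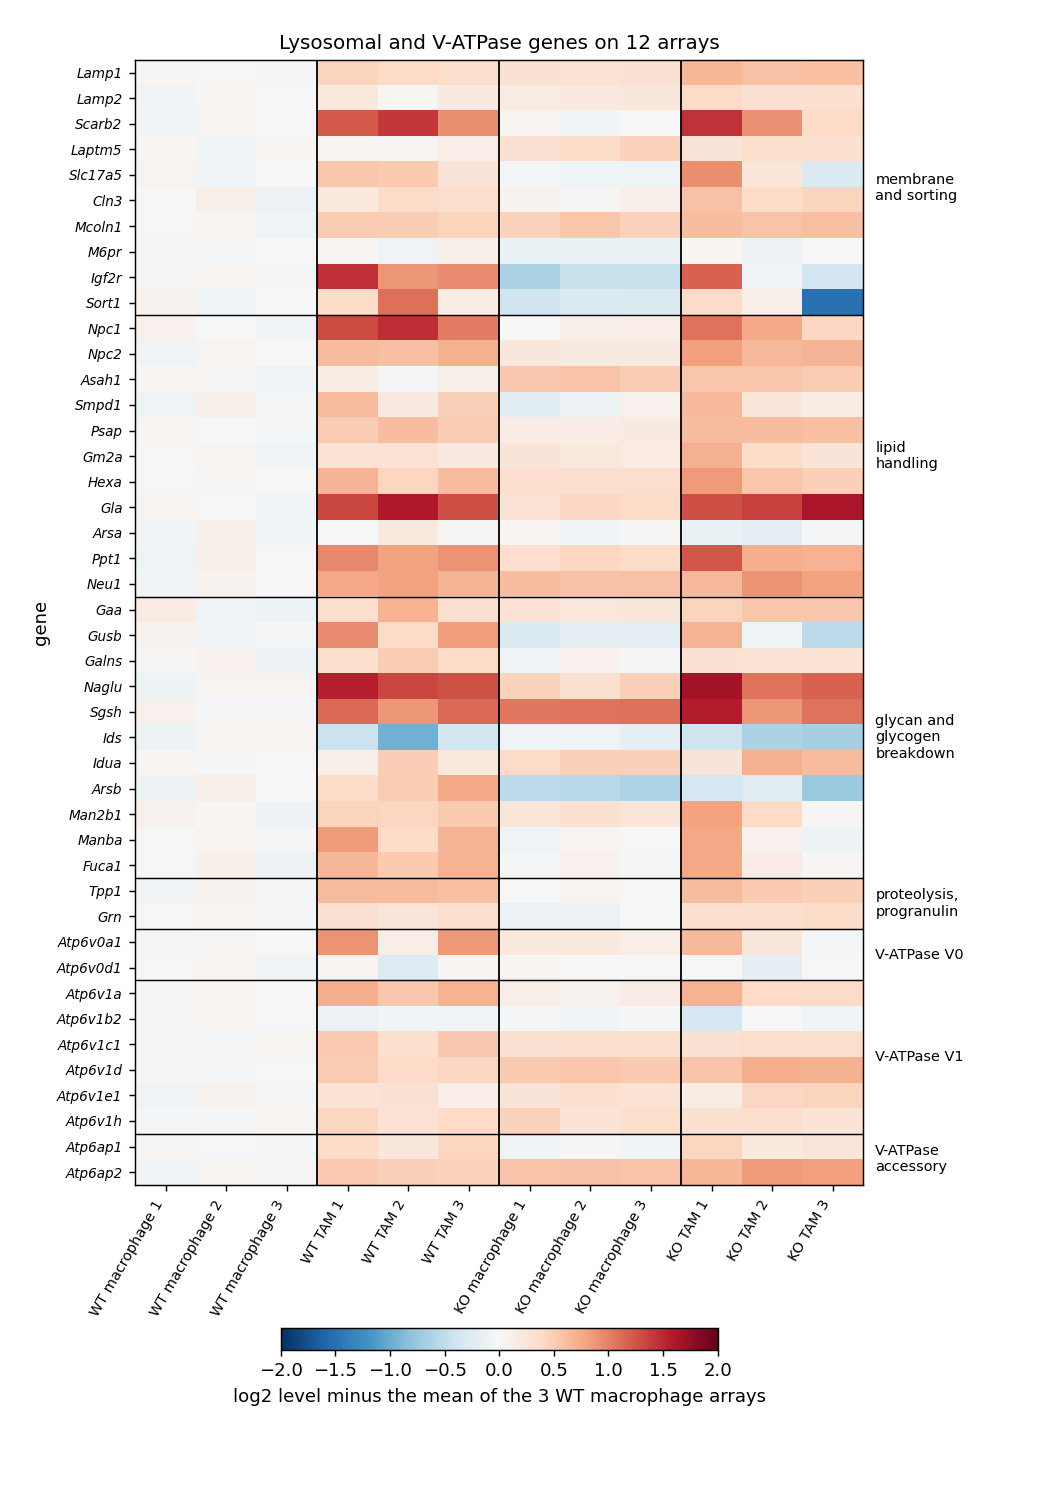
Heatmap of the 44 measured genes (rows, grouped by role) on the 12 arrays (columns, grouped by genotype and culture), coloured by the log2 level minus the mean of the 3 WT macrophage arrays on a scale from -2 to 2. The WT TAM columns are above the WT macrophage mean in 42, 39 and 42 of the 44 rows, and the KO TAM columns differ among themselves.

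Among the 10 membrane and sorting genes, 5 were called higher in WT TAMs and none lower, with a median difference of 0.42. Scarb2, which encodes the receptor that carries glucocerebrosidase to lysosomes, was at 8.31, 8.44 and 8.39 on the WT macrophage arrays and at 9.60, 9.79 and 9.31 on the WT TAM arrays. Every TAM array lay above every macrophage array, and the rise was 2.28-fold (log2 difference 1.19 ± 0.21 SE, limma adjusted p = 0.00298). Igf2r encodes the large receptor that sorts mannose 6-phosphate tagged enzymes and takes up insulin-like growth factor 2. Its levels were 8.73, 8.81 and 8.72 in WT macrophages and 10.22, 9.64 and 9.69 in WT TAMs, so WT TAM 1 was the highest and the groups stayed apart. The rise of Igf2r was 2.14-fold (1.10 ± 0.31, adjusted p = 0.0379), and its call was lost on leaving out any 1 of the arrays WT macrophage 1, 2 or 3 or WT TAM 1 or 3 (adjusted p up to 0.135). Mcoln1, the lysosomal calcium channel TRPML1, rose 1.4-fold, from 8.56 to 8.69 in WT macrophages to 9.08 to 9.14 in WT TAMs (adjusted p = 0.00124). Lamp1, a main glycoprotein of the lysosomal membrane, rose by 0.40 ± 0.07 (adjusted p = 0.00336). The difference of Cln3, a membrane protein lost in juvenile Batten disease, was 0.32 ± 0.09 (adjusted p = 0.0442), and the call was lost on leaving out any 1 of the 6 arrays compared (up to 0.178). The 5 genes not called were Lamp2, the sialic acid exporter Slc17a5, Laptm5, the cation-dependent mannose 6-phosphate receptor M6pr and sortilin (Sort1), with differences between 0.03 and 0.54.

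Of the 11 genes for lipid handling, 7 were called higher in WT TAMs and none lower, with a median difference of 0.57. The largest difference of all 44 genes was that of Gla, the α-galactosidase that trims globotriaosylceramide and is lost in Fabry disease. Its levels were 9.98, 9.91 and 9.87 in WT macrophages and 11.26, 11.53 and 11.21 in WT TAMs, a wide gap beside the spread within either group. Gla thus rose 2.66-fold (1.41 ± 0.11, adjusted p = 2.33e-05). Npc1 and Npc2 encode the membrane and the soluble protein that move cholesterol out of lysosomes. Npc1 was at 9.42, 9.32 and 9.25 in WT macrophages and at 10.63, 10.81 and 10.36 in WT TAMs, and Npc2 was at 11.06, 11.19 and 11.14 against 11.76, 11.73 and 11.83. Both genes were higher on every TAM array, by 2.4-fold for Npc1 (adjusted p = 0.000406) and by 1.57-fold for Npc2 (adjusted p = 0.000354). A second probe set of Npc1, with a mean level of 4.46, differed by 0.28 in WT cells and by -0.22 in KO cells. Ppt1, which removes palmitate from proteins, had levels of 10.00, 10.20 and 10.08 in WT macrophages and 11.06, 10.90 and 10.99 in WT TAMs. The 2 groups of Ppt1 values were far apart, a 1.85-fold rise (0.89 ± 0.13, adjusted p = 0.00125). Neu1, the lysosomal sialidase, was at 7.96, 8.08 and 8.004 in WT macrophages and at 8.79, 8.82 and 8.70 in WT TAMs. No WT TAM array of Neu1 came near the macrophage arrays, and the rise was 1.69-fold (0.76 ± 0.08, adjusted p = 0.000221). Hexa, the α subunit of hexosaminidase A, rose 1.49-fold (adjusted p = 0.00389), and Psap, the precursor of the saposins that help sphingolipid hydrolases, by 0.54 ± 0.07 (adjusted p = 0.00053). Acid ceramidase (Asah1), acid sphingomyelinase (Smpd1), the GM2 activator (Gm2a) and arylsulfatase A (Arsa) were not called, with differences of 0.07, 0.43, 0.25 and 0.08. Smpd1 was called without WT TAM 2, its lowest WT TAM array (adjusted p = 0.0336). Its second probe set, with a mean level of 6.31, differed by 0.03 in WT cells and by -0.10 in KO cells.

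**Figure D2:**
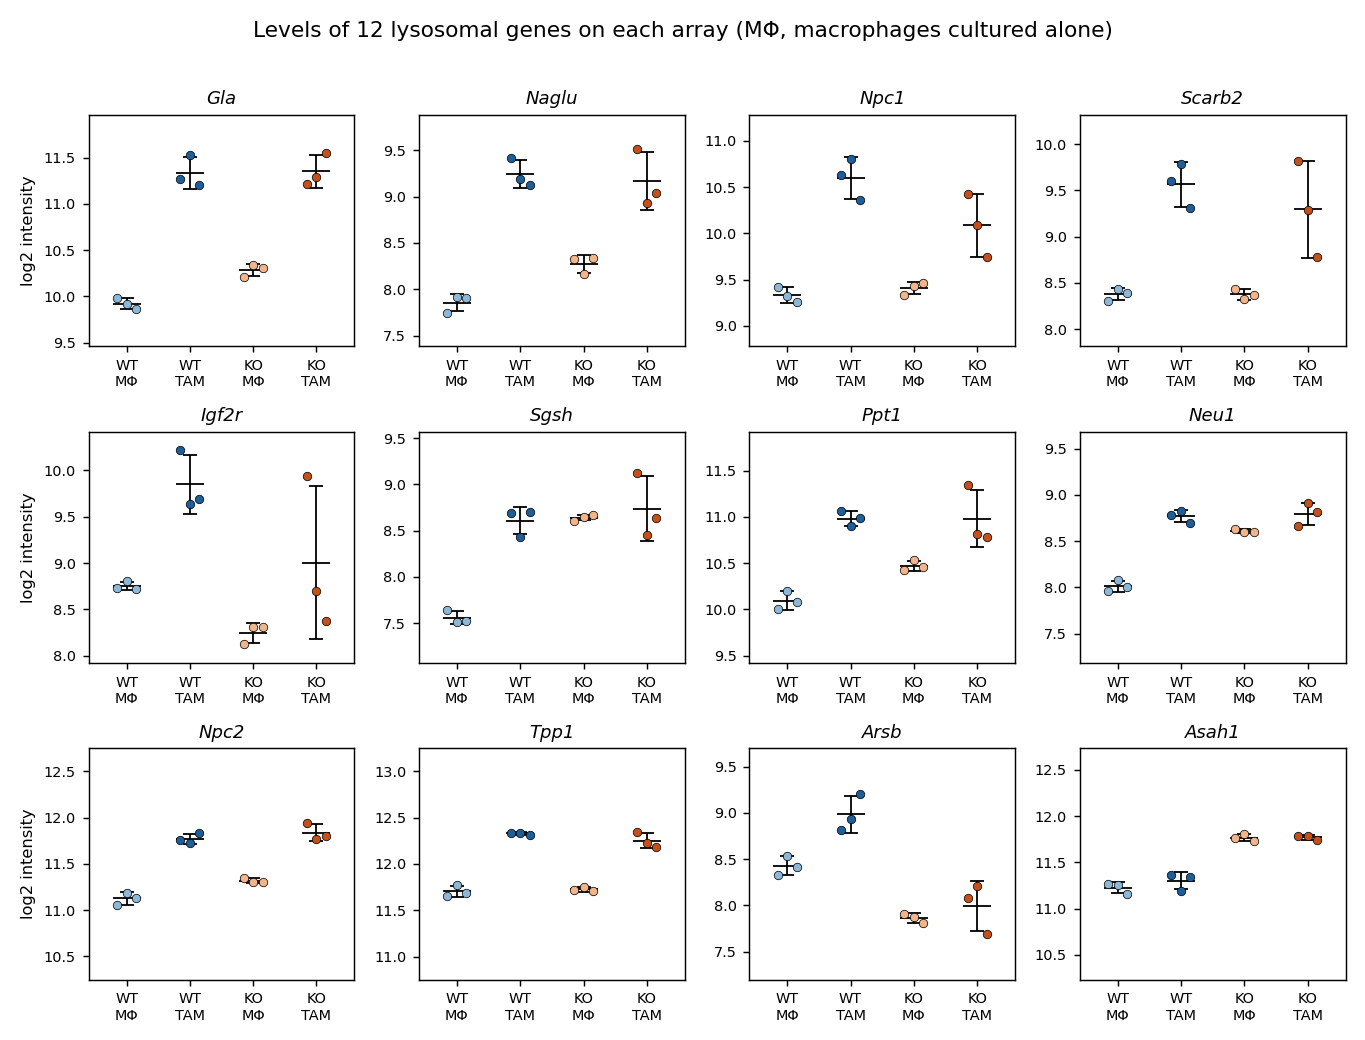
Log2 levels of 12 genes of enzymes, enzyme carriers and lipid handling, 1 panel per gene with 2.5 log2 units on each vertical axis, for the 4 groups. Points are single arrays, and horizontal lines and bars are the mean ± SD of 3 arrays; Gla and Naglu rise in TAMs of both genotypes, and Sgsh lies at 8.61 to 8.66 in KO macrophages and at 8.44 to 8.70 in WT TAMs.

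Of the 11 genes for the breakdown of glycans and glycogen, 7 were called higher in WT TAMs and 1 lower, with a median difference of 0.55. Naglu and Sgsh encode enzymes that degrade heparan sulfate and are lost in forms of Sanfilippo syndrome. Naglu was at 7.75, 7.91 and 7.91 in WT macrophages and at 9.41, 9.19 and 9.13 in WT TAMs. All TAM arrays were clearly above the macrophage arrays, a rise of 2.62-fold (1.39 ± 0.14, adjusted p = 0.000138). Sgsh rose 2.07-fold (1.05 ± 0.15, adjusted p = 0.000832), from 7.64, 7.51 and 7.53 to 8.69, 8.44 and 8.70, again with no overlap. Galns, which removes sulfate from keratan and chondroitin sulfate, rose by 0.41 ± 0.08 (adjusted p = 0.0069) and kept its call on leaving out any 1 array. Acid α-glucosidase (Gaa), arylsulfatase B (Arsb), β-mannosidase (Manba) and α-fucosidase (Fuca1) rose by 0.46, 0.55, 0.64 and 0.63. These calls were less firm. Gaa lost its call without WT macrophage 2 or 3 (adjusted p up to 0.0783), Arsb without WT macrophage 1 or 3 or WT TAM 3 (0.0887), Manba on leaving out any 1 array other than WT TAM 2 (0.163), and Fuca1 without WT macrophage 1 or 3 or WT TAM 1 or 3 (0.0885). Arsb also had a second probe set that differed by -0.28, and its call was lost with the mean of its probe sets. The single gene called lower was Ids, the X-linked iduronate sulfatase of Hunter syndrome, at 9.72, 9.86 and 9.88 in WT macrophages and 9.40, 8.85 and 9.46 in WT TAMs. All TAM arrays of Ids were lower, WT TAM 2 by the most, and Ids fell 1.5-fold (-0.58 ± 0.14, adjusted p = 0.0199), a call lost without WT macrophage 2 or 3 (up to 0.0759). Idua, which acts next to Ids on the same chains, differed by 0.27 and was not called. Neither was β-glucuronidase (Gusb), at 0.72 (adjusted p = 0.075), which was called without WT TAM 2 (adjusted p = 0.0446), nor α-mannosidase (Man2b1), at 0.47 (adjusted p = 0.0705).

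Tpp1, a peptidase that trims tripeptides from proteins in lysosomes, and Grn, whose product progranulin is processed there, were both called higher in WT TAMs. Tpp1 rose 1.54-fold, from 11.66, 11.77 and 11.69 to 12.34, 12.34 and 12.31 (adjusted p = 0.000338). Its TAM values were nearly identical and well above the macrophage values. Grn rose by 0.29 ± 0.07 (adjusted p = 0.0227), a call lost without WT macrophage 1 or 3 or WT TAM 1 or 3 (up to 0.094).

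Of the 10 pump genes, 6 were called higher in WT TAMs and none lower, with a median difference of 0.40. In V1, the ATP-splitting sector, 4 of 6 genes were called. Atp6v1a encodes the catalytic A subunit and was at 10.69, 10.79 and 10.73 in WT macrophages and at 11.47, 11.27 and 11.43 in WT TAMs. The groups did not overlap, and the rise was 1.57-fold (0.65 ± 0.10, adjusted p = 0.00124). Atp6v1c1, Atp6v1d and Atp6v1h, for subunits C, D and H, rose by 0.47, 0.44 and 0.37 (adjusted p = 0.00244, 0.00315 and 0.0099), and these 4 calls held on leaving out any 1 array. Atp6v1b2, for the B subunit that pairs with A in the catalytic ring, was not called, with a difference of -0.07 and values within 11.60 to 11.75 on the 6 WT arrays. Atp6v1e1, for a stalk subunit, differed by 0.24 and was not called. In the membrane sector V0, neither measured gene was called. Atp6v0a1, for the a1 subunit, was at 10.38 to 10.43 in WT macrophages and at 11.31, 10.55 and 11.28 in WT TAMs. Its WT TAM 2 value lay near the macrophages while the other 2 were high, so the difference of 0.64 ± 0.20 had an adjusted p of 0.0575, and of 0.00398 without WT TAM 2. Atp6v0d1, for subunit d1, differed by -0.05. The accessory genes Atp6ap1 and Atp6ap2, which help to assemble the pump, rose by 0.35 and 0.49 (adjusted p = 0.023 and 0.00187), and the call of Atp6ap1 was lost on leaving out any 1 array other than WT TAM 2 (up to 0.0859).

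**Figure D3:**
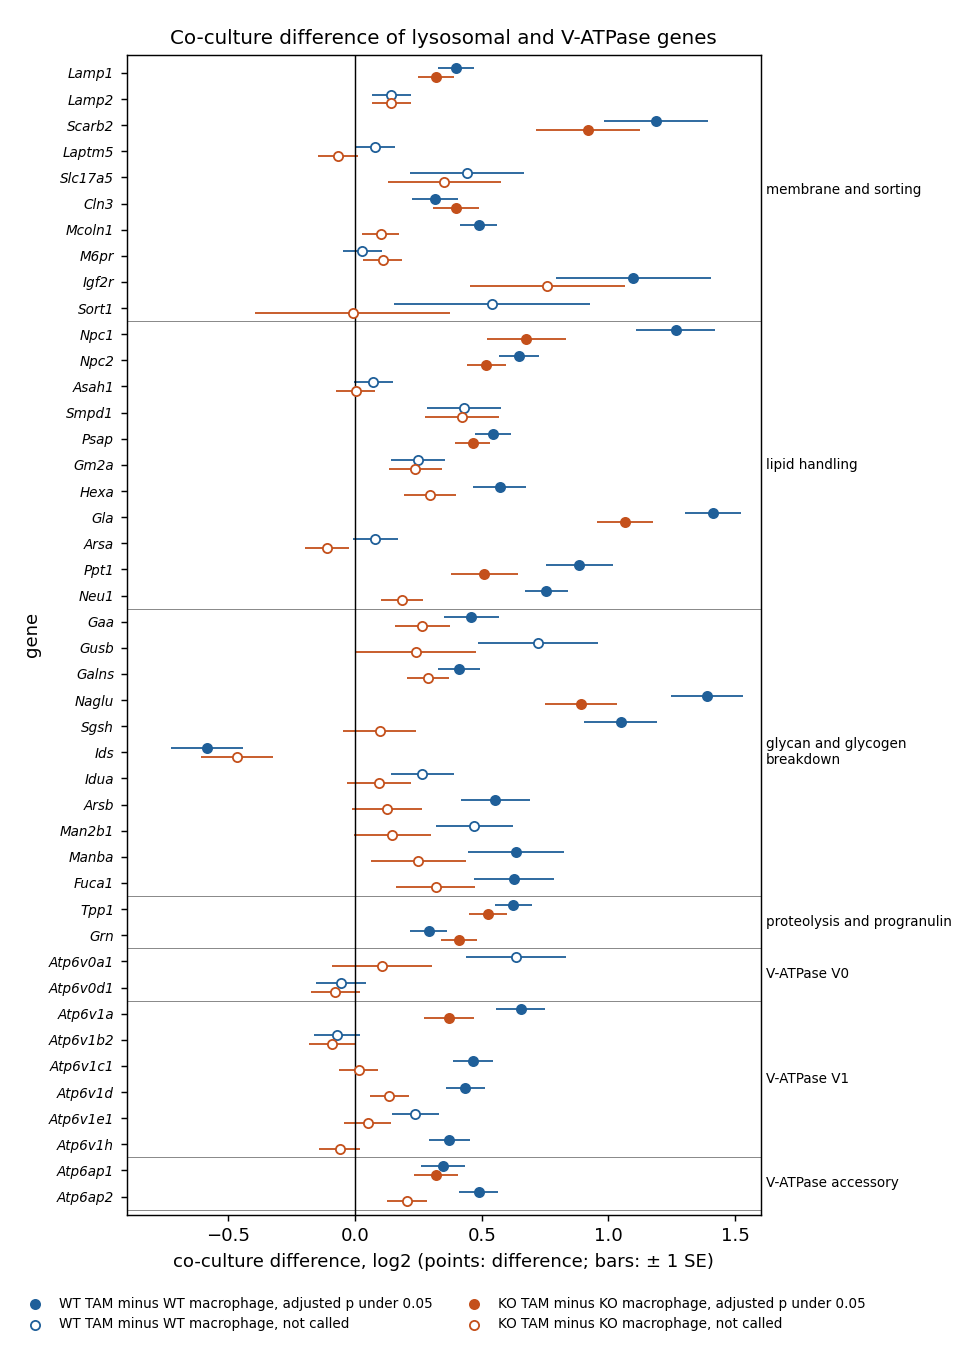
Differences between TAMs and macrophages of the 44 genes on the log2 scale, ± 1 SE, for WT (blue) and KO cells (orange), with filled points for called genes and rows grouped by role. The WT points exceed the KO points in 40 of the 44 rows, as the WT difference does for 12049 of all 22180 genes. Gla, at 1.41 in WT and 1.06 in KO, is the highest in each genotype.

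In Cd36 knockout cells, 13 of the 44 genes were called higher in TAMs than in macrophages and 0 lower, where 2.9% of all genes were called higher and 3.63% lower. At an unadjusted p under 0.05, 22 of the 44 differed in either direction, as did 4457 of all 22180 genes. The stromal marker means were 5.24 to 5.29 in the KO macrophages, against 5.65 to 6.66 in the KO TAMs. Of 8 macrophage markers 4 were called higher in KO TAMs and 1 lower, with a median difference of 0.51. The part of either list was not tested. For the 44 genes the median difference was 0.24, beside -0.01 for all genes. The groups of arrays did not overlap for 25 genes in the higher direction (11.7% of all genes) and for 2 in the lower (14.6%). The 13 called genes were Lamp1, Scarb2, Cln3, Npc1, Npc2, Psap, Gla, Ppt1, Naglu, Tpp1, Grn, Atp6v1a and Atp6ap1, and all of them were also called higher in WT TAMs. The remaining 14 genes that rose in WT TAMs were not called in KO cells, and no such difference between genotypes was called by the interaction test described below.

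By role, KO TAMs had 3 called membrane and sorting genes, 5 for lipid handling, 1 for glycan breakdown, both Tpp1 and Grn, and 2 pump genes. Gla again led, with 10.22, 10.34 and 10.31 in KO macrophages and 11.22, 11.29 and 11.56 in KO TAMs. Each TAM array stood well above each macrophage array, and the rise was 2.09-fold (1.06 ± 0.11, adjusted p = 0.000272). Naglu was at 8.32, 8.16 and 8.34 in KO macrophages and at 9.52, 8.93 and 9.04 in KO TAMs. KO TAM 1 was its highest array, and Naglu rose 1.86-fold (0.89 ± 0.14, adjusted p = 0.00353). Scarb2 was at 8.44, 8.32 and 8.37 in KO macrophages and at 9.82, 9.28 and 8.78 in KO TAMs, a spread of over 1 log2 unit within the TAM group. Its rise of 1.89-fold (0.92 ± 0.21, adjusted p = 0.0212) was not called without KO macrophage 1, 2 or 3 or KO TAM 2 (up to 0.079). Npc1 showed the same kind of spread, at 9.33, 9.43 and 9.47 in KO macrophages and 10.42, 10.09 and 9.74 in KO TAMs. Its 1.6-fold rise (adjusted p = 0.0245) was lost on leaving out any 1 array other than KO TAM 3 (up to 0.0929), and its second probe set differed by -0.22. Npc2, at 11.35, 11.30 and 11.31 against 11.94, 11.77 and 11.80, rose 1.43-fold (adjusted p = 0.00272), and its arrays were tight in both groups.

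Tpp1 rose from 11.71, 11.76 and 11.70 in KO macrophages to 12.34, 12.23 and 12.18 in KO TAMs, 1.44-fold (adjusted p = 0.00195). Psap rose 1.38-fold, from 12.71, 12.72 and 12.74 to 13.20, 13.19 and 13.17 (adjusted p = 0.00273). For both genes the KO TAM arrays lay close together, unlike those of Scarb2 and Npc1. Grn rose from 12.41, 12.41 and 12.52 to 12.84, 12.84 and 12.89, 1.33-fold (adjusted p = 0.00683). Ppt1 was at 10.42, 10.53 and 10.46 in KO macrophages and at 11.34, 10.82 and 10.79 in KO TAMs, with KO TAM 1 far above the other 2. Its 1.42-fold rise (adjusted p = 0.0403) was lost without KO macrophage 1, 2 or 3 or KO TAM 1 (up to 0.127). Cln3, at 8.80, 8.75 and 8.84 against 9.31, 9.09 and 9.18, rose 1.32-fold (adjusted p = 0.0236), a call lost without the same 4 arrays (up to 0.0923). The 3 other calls were smaller. Lamp1 rose by 0.32 ± 0.07 (adjusted p = 0.0207, up to 0.0781 without a KO macrophage array), Atp6v1a by 0.37 ± 0.10 (0.0425, up to 0.142 on leaving out any 1 array other than KO TAM 3), and Atp6ap1 by 0.32 ± 0.09 (0.0497, up to 0.151 on leaving out any 1 of the 6 arrays). Npc2, Psap, Gla, Naglu, Tpp1 and Grn kept their calls on leaving out any 1 array. Igf2r, at 8.12, 8.31 and 8.31 in KO macrophages and 9.94, 8.70 and 8.37 in KO TAMs, had a difference of 0.76 ± 0.31 that was not called (adjusted p = 0.184), and KO TAM 1 alone stood well above the rest.

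KO TAM arrays varied more over these genes than any other group, with a median SD of 0.151 against 0.0981 in WT TAMs, 0.0604 in WT macrophages and 0.0479 in KO macrophages. The median deviation of the 44 genes from the mean of the KO macrophages was 0.47 on KO TAM 1, 0.25 on KO TAM 2 and 0.14 on KO TAM 3. On WT TAM arrays 1 to 3 the same deviation from WT macrophages was 0.51, 0.43 and 0.46. KO TAM 1 was the highest of its group for 28 of the 44 genes and KO TAM 3 the lowest for 22, while WT TAM 2 was the lowest of its group for 22. Without KO TAM 1, 8 genes were called higher in KO TAMs, where 2.5% of all genes were.

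How the knockout changed the genes in cells cultured alone was examined next. Relative to WT macrophages, 11 of the 44 genes were called higher in KO cells and 1 lower, where 5.19% of all genes were called higher and 6.13% lower. The median difference of the 44 was 0.17, beside 0.04 for all genes. The largest was that of Sgsh, at 8.61, 8.65 and 8.66 in KO macrophages against the WT values of 7.64, 7.51 and 7.53 given above. Arrays within each genotype nearly coincided, and Sgsh was 2.11-fold higher in KO macrophages (1.08 ± 0.15, adjusted p = 0.000993). Neu1 was at 8.64, 8.60 and 8.60 in KO macrophages, all above the WT range of 7.96 to 8.08, a 1.51-fold difference (0.60 ± 0.08, adjusted p = 0.00114). Mcoln1 was at 9.09, 9.18 and 9.08 against 8.63, 8.69 and 8.56, with no overlap, 1.41-fold higher in KO (adjusted p = 0.00155). Asah1, the acid ceramidase, was at 11.76, 11.80 and 11.74 in KO and at 11.27, 11.25 and 11.16 in WT macrophages. It was 1.45-fold higher (0.54 ± 0.08, adjusted p = 0.00124), and its co-culture difference was 0.07 in WT and 0.00 in KO cells.

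Several pump genes were also higher in KO macrophages, 4 of the 10 in all. Atp6ap2, known also as the prorenin receptor, was at 11.24, 11.25 and 11.24 in KO macrophages and at 10.60, 10.73 and 10.70 in WT macrophages. The KO values were almost equal, and the difference was 1.48-fold (0.57 ± 0.08, adjusted p = 0.00107). Atp6ap2 lies on the X chromosome, as do Lamp2, Gla, Ids and Atp6ap1, and those 4 were not called between WT and KO macrophages, with differences of 0.19, 0.37, -0.10 and -0.03. Atp6v1d was at 10.34, 10.38 and 10.34 in KO and at 9.85, 9.80 and 9.81 in WT macrophages, 1.45-fold higher and without overlap (adjusted p = 0.00126). Atp6v1h was at 9.14, 8.94 and 9.03 against 8.65, 8.66 and 8.71 (1.28-fold, adjusted p = 0.013), a call lost without WT macrophage 1 or 2 or KO macrophage 1 (up to 0.061). Atp6v1c1 was 1.25-fold higher (adjusted p = 0.022), lost on leaving out any 1 array other than WT macrophage 3 (up to 0.0823).

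The other called genes were 3 higher and 1 lower. Laptm5, a lysosomal membrane protein of blood cells, was at 9.99, 10.05 and 10.15 in KO and at 9.73, 9.60 and 9.74 in WT macrophages, 1.3-fold higher (adjusted p = 0.00996, but 0.0509 without WT macrophage 2). Idua was at 9.98, 10.08 and 10.08 in KO and at 9.64, 9.58 and 9.60 in WT macrophages, 1.36-fold higher (adjusted p = 0.0423, lost on leaving out any 1 of the 6 arrays, up to 0.12). Lamp1 was 1.23-fold higher in KO macrophages (adjusted p = 0.0185, up to 0.0762 on leaving out any 1 array other than WT macrophage 1). Arsb, which removes sulfate from dermatan sulfate, was the gene that was lower, at 7.91, 7.88 and 7.81 in KO macrophages and at 8.33, 8.54 and 8.41 in WT macrophages. The KO arrays were all below the WT arrays, by 1.48-fold (-0.56 ± 0.14, adjusted p = 0.0211), a call lost on leaving out any 1 array other than WT macrophage 1 (up to 0.0851). Mcoln1, Asah1, Neu1, Sgsh, Atp6v1d and Atp6ap2 kept their calls on leaving out any 1 array. The stromal markers named above were lower and the osteoclast markers also lower in KO than in WT macrophages, at 5.24 to 5.29 against 6.67 to 6.76 and at 5.83 to 5.90 against 6.998 to 7.216. Their part in these differences was not tested.

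**Figure D4:**
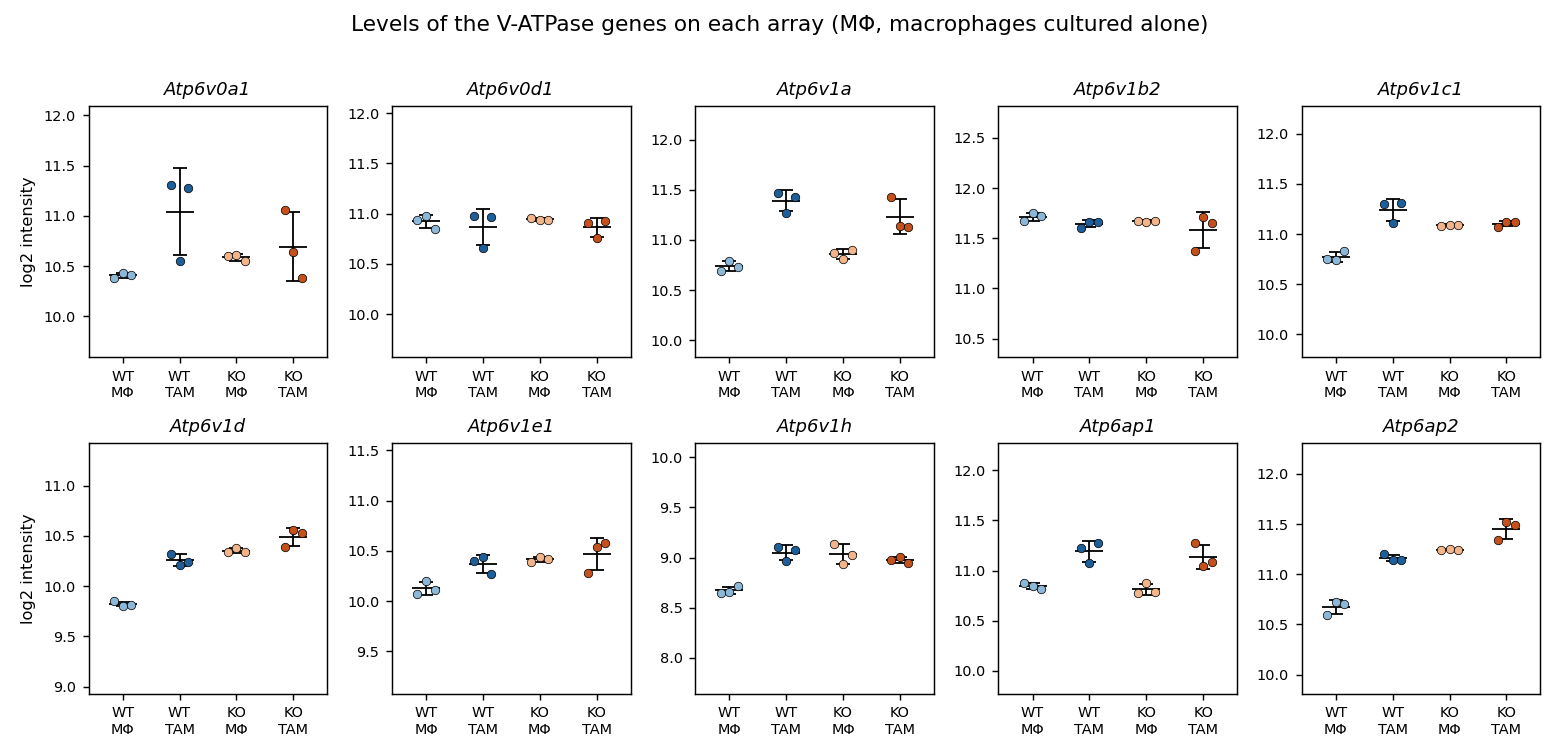
Log2 levels of the 10 measured V-ATPase genes, 1 panel per gene with 2.5 log2 units on each vertical axis, for the 4 groups. Points are single arrays, and horizontal lines and bars are the mean ± SD of 3 arrays; Atp6v1d and Atp6ap2 stand above their WT macrophage levels in KO macrophages, and Atp6v1b2 and Atp6v0d1 were called in none of the comparisons.

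Between KO and WT TAMs, 2 of the 44 genes were called higher and 1 lower, where 5.03% of all genes were called higher and 7.19% lower, and the median difference was -0.03, beside 0.02 for all genes. Arsb was at 8.08, 8.21 and 7.69 in KO TAMs and at 8.81, 8.93 and 9.21 in WT TAMs. Each KO array was below each WT array, and Arsb was 1.99-fold lower in KO TAMs (-0.99 ± 0.14, adjusted p = 0.000849), as it was lower in KO macrophages. Arsb was the gene called in opposite directions, higher in WT TAMs than in their macrophages and lower in both KO groups than in their WT counterparts, in comparisons that share WT arrays. Its second probe set, with a mean level of 3.91, differed by -0.40 between KO and WT macrophages and by -0.06 between KO and WT TAMs. Asah1 was at 11.79, 11.79 and 11.74 in KO TAMs and at 11.37, 11.19 and 11.34 in WT TAMs, 1.39-fold higher (0.47 ± 0.08, adjusted p = 0.00227). The calls of Arsb and Asah1 held on leaving out any 1 array. Atp6ap2, at 11.34, 11.52 and 11.49 against 11.20, 11.15 and 11.14, was 1.22-fold higher (adjusted p = 0.0322), which was not called without WT TAM 1, 2 or 3 or KO TAM 2 or 3 (up to 0.118). Sgsh, Neu1 and Mcoln1, which were higher in KO macrophages, differed by 0.13, 0.03 and 0.10 between KO and WT TAMs and were not called.

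This comparison depended on KO TAM 1, the array on which the genes were highest. Without it, 9 genes were called lower in KO than in WT TAMs and 4 higher, where 9.45% of all genes were called lower and 7.28% higher. The 9 were Scarb2, Slc17a5, Igf2r, Sort1, Npc1, Gusb, Arsb, Manba and Fuca1. Igf2r differed by -1.31 ± 0.17 in that setting (adjusted p = 0.000314), and by -0.85 (adjusted p = 0.101) with all arrays. Sort1, the sortilin gene, was at 8.75, 8.48 and 6.87 on KO TAM arrays 1 to 3 and at 8.73, 9.45 and 8.52 in WT TAMs. KO TAM 3 was far below all other arrays of Sort1. The difference of Sort1 was -0.87 (adjusted p = 0.184) with all arrays and -1.23 (adjusted p = 0.0488) without KO TAM 1. A second probe set of Sort1, with a mean level of 5.36, differed by 0.02 between KO and WT TAMs. Gusb was at 11.11, 10.33 and 9.90 in KO TAMs and at 11.37, 10.82 and 11.27 in WT TAMs, and its difference went from -0.70 (adjusted p = 0.0794) to -1.03 (adjusted p = 0.00122). Without WT TAM 2 and KO TAM 1 together, 9 genes were again called lower (11.8% of all genes) and 4 higher (8.43%), and of the 9 named above Scarb2, Slc17a5 and Sort1 were not among them, while Smpd1, Atp6v0a1 and Atp6v1a were. Stromal markers were also lower on KO than on WT TAM arrays, at 6.66, 6.38 and 5.65 against 7.04, 8.11 and 7.17, and highest within the KO TAMs on KO TAM 1.

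Whether co-culture changed the genes by a different amount in the 2 genotypes was tested by the interaction, in which the WT co-culture difference is subtracted from that of KO cells. With limma, 0 of the 44 genes were called, where 0.194% of all genes were, and 11 had an unadjusted p under 0.05, as did 2130 of all 22180 genes. The interaction estimate was below 0 for 40 of the 44 genes and for 12049 of all 22180 genes. Its median was -0.23 for the 44 genes, beside -0.02 for all genes. The 44 estimates come from the same arrays, so their signs are not independent of one another. The lowest estimate was that of Sgsh (-0.95 ± 0.21, adjusted p = 0.104), and the lowest adjusted p that of Neu1 (-0.57 ± 0.12, adjusted p = 0.0888). For Sgsh the co-culture difference was 1.05 in WT and 0.10 in KO cells, and for Neu1 it was 0.76 and 0.19. Neu1 was at 8.60 to 8.64 in KO macrophages and at 8.70 to 8.82 in WT TAMs. Atp6v1c1 (-0.45 ± 0.11, adjusted p = 0.152), Atp6v1h (-0.43 ± 0.11, adjusted p = 0.187) and Mcoln1 (-0.39 ± 0.10, adjusted p = 0.201) also had estimates below 0, with KO co-culture differences of 0.01, -0.06 and 0.10. Npc1 (-0.59 ± 0.22, adjusted p = 0.397) differed by 0.08 between KO and WT macrophages and by -0.51 between the TAMs.

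The interaction also changed with the arrays that stood apart. Without KO TAM 1, Ppt1, Neu1, Naglu and Sgsh were called, with estimates of -0.56, -0.51, -0.67 and -1.14 (adjusted p = 0.0419, 0.0415, 0.0415 and 0.00288), where 0.748% of all genes were called in the lower direction. Without WT TAM 2, Sgsh (adjusted p = 0.0461) and Atp6v1c1 (adjusted p = 0.0399) were called with estimates below 0, where 0.681% of all genes were called in that direction. Without both arrays, 13 of the 44 genes were called, all with a smaller co-culture difference in KO cells, where 3.78% of all genes were called in that direction. These were Igf2r, Hexa, Ppt1, Neu1, Gusb, Naglu, Sgsh, Manba, Fuca1, Atp6v0a1, Atp6v1a, Atp6v1c1 and Atp6v1h. Sgsh had the lowest estimate there, -1.23 ± 0.12 (adjusted p = 0.000336), followed by Gusb at -0.98 ± 0.17 (adjusted p = 0.00798) and Atp6v0a1 at -0.96 ± 0.12 (adjusted p = 0.00167). With all arrays kept, the same estimates for Gusb and Atp6v0a1 were -0.48 and -0.53, and neither was called. Leaving out these 2 arrays was chosen with an earlier report on these data in view. KO TAM 1 was the highest of its group for 28 of the 44 genes and WT TAM 2 the lowest of its group for 22. For such genes their removal by itself lowers the estimate, so these added calls are no independent test of a genotype difference.

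Other genes of the lysosome were counted from lists written from textbook knowledge. For reading these counts, 5.89% of all tested genes were called higher and 5.66% lower in WT TAMs, and 2.9% and 3.63% in KO TAMs. Of 14 further V-ATPase subunit genes, 3 were called higher in WT TAMs, 0 lower, and 1 higher in KO TAMs, with median differences of 0.04 and 0.03. Both medians include dim genes. Atp6v0a4, Atp6v1g3 and Atp6v1c2 had mean levels of 4.08, 4.10 and 4.16. Those of Atp6v1e2, Atp6v0e2, Atp6v1b1 and Atp6v1f were 5.22, 5.23, 5.26 and 5.81. Tcirg1, for the a3 subunit of V0, rose by 0.50 ± 0.09 in WT TAMs (adjusted p = 0.00309), and Atp6v1g1, for the G1 stalk subunit, by 0.52 ± 0.09 (adjusted p = 0.00239). Atp6v1g1 was also higher in macrophages of the KO than of the WT, by 0.53 ± 0.09 (adjusted p = 0.00241), a call lost with the mean of its probe sets. Atp6v0d2, for the d2 subunit of V0 that macrophages and osteoclasts carry, went the other way, at 7.498, 7.52 and 7.46 in KO macrophages and at 9.58, 9.93 and 9.76 in WT macrophages. Its difference of -2.27 ± 0.55 (adjusted p = 0.0211) was the only lower call of these 14 genes between the macrophages, and was lost on leaving out any 1 of the 6 arrays (up to 0.0729). It was also the gene called in KO TAMs, at 12.02, 10.33 and 8.87 (2.92 ± 0.55, adjusted p = 0.0097, and 0.0751 with only the arrays of the groups compared), with KO TAM 1 far above KO TAM 3. Of 13 cathepsins, 5 were called higher in WT TAMs and 6 in KO TAMs, with none lower and medians of 0.28 and 0.34. Ctsd, the main aspartic protease of lysosomes, rose by 0.80 ± 0.07 in WT and by 0.65 ± 0.07 in KO TAMs, and its WT arrays went from 12.35 to 12.45 up to 13.17 to 13.22. Between KO and WT macrophages 2 cathepsins were called higher and 1 lower, and the same numbers between KO and WT TAMs. Ctsc, which activates serine proteases by trimming them, differed by 0.39 ± 0.09 in macrophages and 0.46 ± 0.09 in TAMs (adjusted p = 0.0118 and 0.00451, the latter call lost with only the arrays of the groups compared). Ctsh, an aminopeptidase, differed by 0.39 ± 0.10 and 0.49 ± 0.10 (adjusted p = 0.0251 and 0.00772), the former call lost on leaving out any 1 of the 6 arrays (up to 0.0978) and the latter with only the arrays of the groups compared. Ctsk, the collagen-degrading cathepsin of osteoclasts, was the lower gene, by -3.19 ± 0.38 in macrophages (adjusted p = 0.000493) and -1.28 ± 0.38 in TAMs (adjusted p = 0.0464, up to 0.164 without WT TAM 1 or 2 or KO TAM 2 or 3). Of 24 other hydrolases measured, 10 were called higher and 2 lower in WT TAMs, and 6 higher and 0 lower in KO TAMs, with medians of 0.12 and 0.21. Pld3, a lysosomal exonuclease, rose by 1.21 ± 0.14 in WT and 1.41 ± 0.14 in KO TAMs. Acp5, the tartrate-resistant phosphatase of osteoclasts, fell by 2.51 ± 0.41 in WT TAMs (adjusted p = 0.00213), and Hgsnat, which acts on heparan sulfate beside Naglu and Sgsh, fell by 1.08 ± 0.16 (adjusted p = 0.00111). Of 34 other lysosomal membrane genes, 16 were called higher and 1 lower in WT TAMs, and 11 higher and 1 lower in KO TAMs, with medians of 0.37 and 0.25. The cysteine importer Mfsd12 rose by 1.29 ± 0.09 (adjusted p = 1.35e-05) in WT TAMs and by 0.72 ± 0.09 (adjusted p = 0.000906) in KO TAMs. Of 30 genes for delivery of enzymes to lysosomes, 7 were called higher and 1 lower in WT TAMs, and 1 higher in KO TAMs, with medians of 0.09 and 0.04. Between KO and WT macrophages, the calls were 3 higher and 1 lower for the 24 hydrolases and 4 higher for the 34 membrane genes. For the 30 delivery genes they were 3 higher and 3 lower, where 5.19% of all genes were called higher and 6.13% lower. Between KO and WT TAMs the calls of these 3 lists were 5 higher and 1 lower, 4 higher, and 0. There 5.03% of all genes were called higher and 7.19% lower.

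Among the 4 MiT factor genes, the levels did not move together in WT TAMs. Tfec was at 8.20, 8.35 and 8.39 in WT macrophages and at 10.21, 9.02 and 10.05 in WT TAMs. WT TAM 2 was the lowest TAM array but above all macrophage arrays, and Tfec rose by 1.45 ± 0.34 (adjusted p = 0.0172), a call lost without WT macrophage 1, 2 or 3 or WT TAM 1 or 3 (up to 0.0715). Tfe3 fell by 0.50 ± 0.10 (adjusted p = 0.00699), from 10.04, 9.97 and 10.04 to 9.48, 9.50 and 9.57, with every TAM array below the macrophage arrays. Tfeb, at -0.26 ± 0.09 (adjusted p = 0.0886), and Mitf, at 0.11 ± 0.13 (adjusted p = 0.712), were not called. In KO TAMs, Tfec had levels of 10.35, 9.05 and 9.02 against 8.04, 8.20 and 8.11 in KO macrophages, with KO TAM 1 the highest. That difference of 1.35 ± 0.34 was called (adjusted p = 0.036) and was lost without KO macrophage 1, 2 or 3 or KO TAM 1 (up to 0.113). No gene of the 4 was called between the genotypes in either culture.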

How the data were processed

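Total RNA of mouse macrophages was measured on 12 single-channel arrays in 4 groups of 3, with the group and number of each sample taken from its title. The authors deposited 1 table of intensity values per probe set, which the submitters' processing notes credit to RMA. RMA removes background, equalises the arrays by quantiles and summarises probes, so changes common to most genes are lost. The notes also name limma, with no version of either. A genome build is not named there.

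The deposited intensity values were linear and were turned into log2 without a pseudocount. Of 41345 probe sets, 23521 had 1 gene symbol, 1814 several and 16010 none. Those with 1 symbol gave 22180 genes, with the brightest probe set kept for the 1082 genes that had several. Limma 3.58.1 in R 4.3.3 (lmFit and eBayes) was fitted to 4 group means with 8 residual degrees of freedom, after being tested on simulated data. Adjustment was by Benjamini-Hochberg over all genes, with calls at an adjusted p under 0.05. TAM arrays varied more than macrophage arrays, so a shared spread can give p-values that are too small between TAM groups. The genes and lists were chosen with earlier results of these data known. Values on every array are given for up to 10 called genes per comparison with the largest difference and no overlap between groups, for genes called in opposite directions, and for a few genes (Sort1, Gusb, Atp6v0a1 and the MiT factors among them) chosen after their values were seen. Alternatives covered the replicate number as a block, normalization, array weights, prior variance, a filter on level, the choice of probe set and the arrays used. Promoter windows came from RefSeq, assembly GRCm38.p6.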

Additional observations from a re-analysis of the deposited data

How the results depend on the processing

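No difference that was called changed its sign under any alternative tried, for the 44 genes in the 4 comparisons with called genes. Counts of called genes moved more. Of the calls made, 19 of 28 between WT TAMs and WT macrophages, 6 of 13 between KO TAMs and KO macrophages, 6 of 12 between KO and WT macrophages and 2 of 3 between KO and WT TAMs held without any 1 array of the groups compared. Leaving out 1 array at a time gave 19 to 29 higher and 0 to 1 lower genes in WT TAMs, 6 to 14 higher in KO TAMs, 6 to 9 higher and 0 to 1 lower in KO macrophages, 1 to 4 higher and 1 to 9 lower in KO against WT TAMs, and 0 to 4 lower in the interaction.

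With array weights, KO TAMs had 1 lower gene, KO against WT macrophages 18 higher, KO against WT TAMs 5 higher and 8 lower, and the interaction 7 lower, where 2705, 4923, 4725 and 761 of all 22180 genes were called in either direction. Without WT TAM 2 and KO TAM 1 together these were 1, 17 (with 2 lower), 4 and 9, and 13, where 2147, 4558, 4480 and 1496 of all genes were called. By direction in that setting, 5.39% of all genes were called lower in KO TAMs and 3.78% in the interaction. In KO against WT TAMs 8.43% were called higher and 11.8% lower. With only the arrays of the groups compared, WT TAMs had 0 lower, KO TAMs 5 higher, KO against WT macrophages 17 higher and 3 lower, and KO against WT TAMs 1 higher, where 2526, 505, 4716 and 638 of all genes were called. A mean level of at least 5 gave 1 lower in KO TAMs, 5 higher and 2 lower in KO against WT TAMs and 1 lower in the interaction, where 1990, 3075 and 96 of all genes were called. In KO against WT TAMs, a trended prior variance gave 6 higher and 2 lower, repeated quantile normalization 1 and 2, and the mean of all probe sets 2 lower, where 2903, 2891 and 2654 of all genes were called. The numbers of all genes called in this paragraph count both directions, so they are no background for counts in a single direction. The cause of these changes was not tested. The number of all genes called was 2561 in WT TAMs (1475 to 4049 under the alternatives), 1449 in KO TAMs (505 to 2705), 2512 in KO macrophages (1403 to 4923), 2710 in KO against WT TAMs (638 to 4725) and 43 in the interaction (14 to 1496).

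With the replicate number as a block, 26 higher and 1 lower genes were called in WT TAMs, 10 and 0 in KO TAMs, 11 and 1 in KO macrophages, 2 and 2 in KO against WT TAMs, and 0 in the interaction. The numbers of all genes called with this block lay within the ranges for the alternatives given above. Deviations from the group means over all genes correlated at -0.056 to 0.02 between same-number arrays in every pair of groups except the TAMs. Between WT and KO TAMs the correlations were 0.271, 0.247 and 0.033 for numbers 1 to 3, and -0.284 to 0.071 between unlike numbers. The numbers were not taken to pair the samples, and whether TAM arrays of the same number belong together was not tested. All 44 genes lay above background, with a lowest level of 6.43 where Y-linked genes read 3.05 to 4.10 on WT arrays.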
